A study of Mus musculus with 4 samples.

Results

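The genes described here encode the subunits and general factors with which RNA polymerases start and extend transcripts. They were chosen by symbol: rows of the table whose gene symbol begins with Polr1, Polr2, Polr3, Gtf2 or Gtf3, or with Taf, Med, Supt, Ints or Tcea followed by a digit. This rule found 66 genes, each with 1 transcript, among 6352 transcripts. Primary cortical neurons of mice were given harringtonine, a drug that holds ribosomes at start codons, at 5 µg/ml for 3 min, and ribosome footprints at initiation sites were counted. There were 4 libraries: Ltn1 KO with TTC3 RNAi, WT with TTC3 RNAi, Ltn1 KO with scramble RNAi and WT with scramble RNAi, according to the titles. The letters of the library codes spell the opposite RNAi, so the libraries are called KO SC, WT SC, KO TTC and WT TTC, and SC stands for TTC3 RNAi only as far as the titles go. LTN1 is the ubiquitin ligase of ribosome-associated quality control, and TTC3 is another ubiquitin ligase. Each condition had 1 library, so no difference between conditions has a replicate check, and every interval covers counting error only.

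Protein-coding genes are transcribed by RNA polymerase II, ribosomal RNA by polymerase I, and tRNA and 5S rRNA by polymerase III. Polymerase II is placed at a promoter by TFIID, made of the TATA-binding protein and TAF proteins, together with the factors TFIIA, TFIIB, TFIIE, TFIIF and TFIIH. Mediator passes signals from bound activators to the polymerase, DSIF, SPT6, FACT and TFIIS act during elongation, and Integrator cleaves RNA near the start of many genes and at the ends of small nuclear RNAs. All of these proteins are made in the cytoplasm, and the footprints count ribosomes at the start of their reading frames, not transcription.

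Values are RPM, reads scaled to the depth of the whole library. One read was worth 0.374 RPM in KO SC, 0.477 in WT SC, 0.274 in KO TTC and 0.685 in WT TTC, and totals ran from 1460425 reads in WT TTC to 3655827 in KO TTC. A gene with 0 reads may have had up to 3 reads, which is 1.12 RPM in KO SC, 1.43 in WT SC, 0.821 in KO TTC and 2.05 in WT TTC. The site of Ltn1 had 37 reads in KO SC, 10 in WT SC, 0 in KO TTC and 2 in WT TTC, and that of Ttc3 had 2, 3, 0 and 0 reads in the same order. The library labelled KO SC thus had the most Ltn1 reads, and Ttc3 had reads only in the libraries titled TTC3 RNAi. The Ttc3 counts did not exceed the 3 reads that a gene at 0 may have had, so they cannot check the RNAi labels. The sources used here do not say which part of Ltn1 was deleted, so its site cannot check the genotype. The names below are therefore those of the labels. All 9 neuronal markers had reads in every library, with sums of 1743 to 1995 RPM. The 4 measured oligodendrocyte markers summed to 9.35 RPM in KO SC, 32.4 in WT SC, 32.0 in KO TTC and 58.9 in WT TTC, with Mbp at 0 reads in KO SC. The 5 measured astrocyte markers summed to 88.7, 149, 126 and 178 RPM in that order, and 0 of 5 listed microglial markers and 0 of 3 endothelial markers had a row. Both glial sums were thus lower in each Ltn1 KO library than in either WT library, but the oligodendrocyte sums of KO TTC and WT SC were nearly equal. Aldoc alone had 75.2 of the 88.7 RPM of astrocyte markers in KO SC. In the SC pair, 1 astrocyte marker was higher in KO SC (Slc1a3) and 3 lower, against 0 and 4 oligodendrocyte markers. In the TTC pair these counts were 1 (Aqp4) and 4, against 1 (Olig1) and 3. The part of the glial sums in the results on the transcription machinery was not tested. In such bulk libraries, fewer cells of a type and fewer footprints per cell cannot be told apart.

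The transcription machinery was measured at low levels. The 66 genes together had 209 RPM in KO SC (exact Poisson 95% interval 192 to 227), 242 in WT SC (221 to 264), 245 in KO TTC (230 to 262) and 217 in WT TTC (194 to 242). The median gene had 1.50 RPM in KO SC, 1.91 in WT SC, 1.50 in KO TTC and 0.685 in WT TTC, where the median of all transcripts was 2.62, 2.86, 3.01 and 2.74 RPM. Of the 66 genes, 19 had 0 reads in KO SC, 19 in WT SC, 15 in KO TTC and 31 in WT TTC. In WT TTC, the library with the fewest reads, 47.0% of these genes and 28.4% of all transcripts were at 0. Gtf2e2, Ints8, Med1, Med23 and Taf9b had 0 reads in all 4 libraries.

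**Figure D1:**
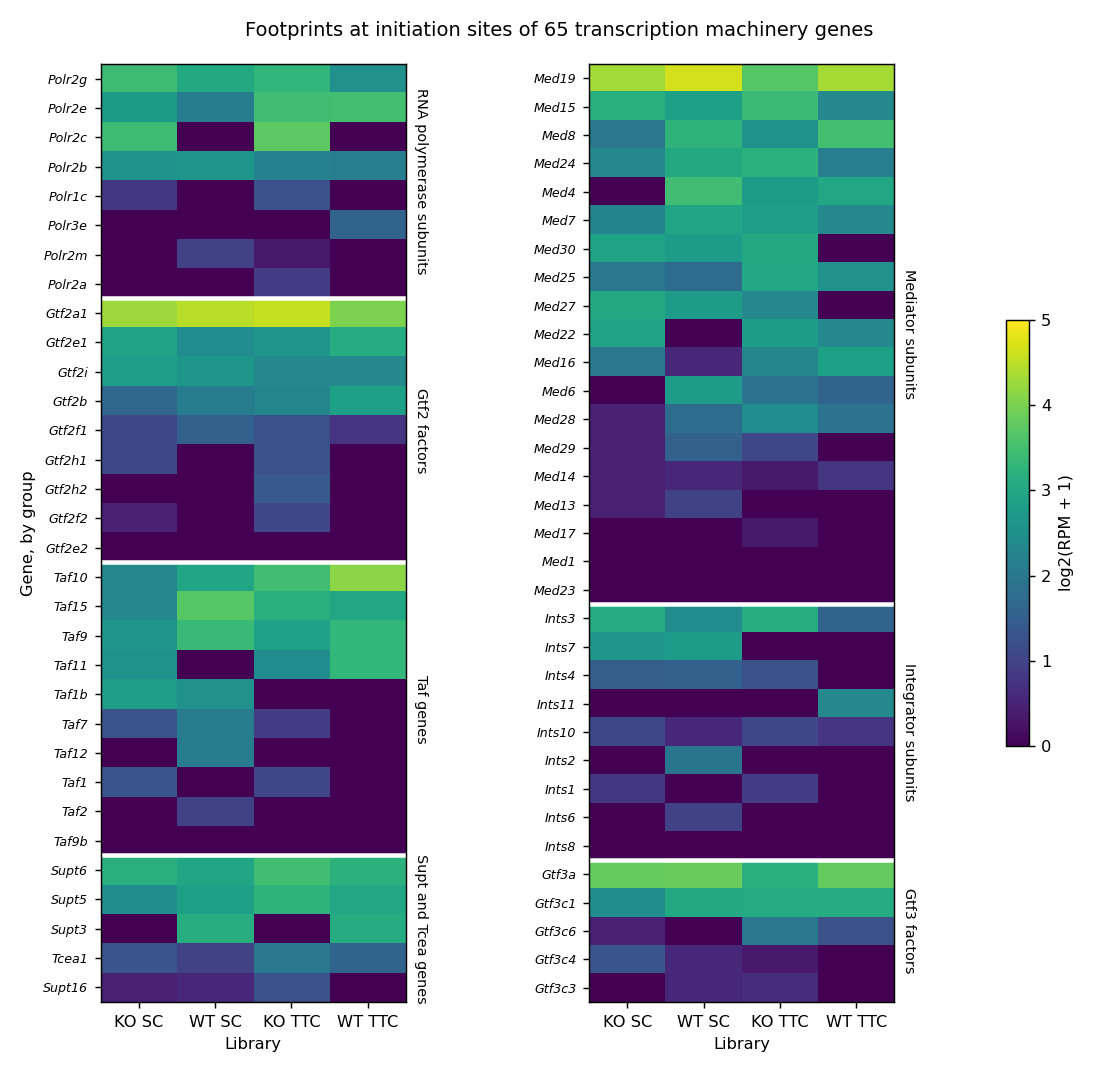
Level of 65 of the 66 genes as log2(RPM + 1) (colour) in the 4 libraries (horizontal axes), with genes listed by group and by mean level (vertical axes). Gtf2a1 and Med19 are the brightest rows, and single dark cells within bright rows, such as Med4 in KO SC, are libraries with 0 reads.

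By the mean over libraries, the highest level was that of Gtf2a1, the TFIIA subunit that is cut into an alpha and a beta chain. It had 18.3 RPM in KO SC (interval 13.6 to 24.2), 21.0 in WT SC (15.3 to 28.2), 22.7 in KO TTC (18.1 to 28.1) and 15.1 in WT TTC (9.44 to 22.8). Med19, a Mediator subunit, came next with 18.7, 24.3, 11.8 and 19.2 RPM in the same order of libraries, and was above Gtf2a1 in every library but KO TTC. Next was Gtf3a, the TFIIIA protein that binds 5S rRNA genes, with 13.1, 13.4, 7.93 and 13.0 RPM. The intervals of these 3 genes overlap within each of the SC libraries. Overlap of intervals does not decide an order, and the order there was not tested. In KO TTC the interval of Gtf2a1 lay above those of Med19 (8.51 to 15.8) and Gtf3a (5.31 to 11.4). After them came Taf10, Supt6, Taf15, Polr2g, Taf9, Polr2e and Med15, with means over the libraries of 6.94 to 9.34 RPM. Only 19 of the 66 genes had a mean of at least 5 RPM. Levels are per site and need not follow the amount of protein.

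Polr2c, on chromosome 8 of GRCm38 from 94857450 to 94864242, where it overlaps Dok4, was read in both Ltn1 KO libraries and in neither WT library. It encodes RPB3, a core subunit of polymerase II. It had 26 reads in KO SC (9.73 RPM) and 0 in WT SC, and 45 reads in KO TTC (12.3 RPM) and 0 in WT TTC. Both Ltn1 KO libraries were therefore above both WT libraries, by at least 6.80-fold in the SC pair (adjusted p = 7.10e-05, two-sided exact binomial test on the reads of both libraries) and at least 5.99-fold in the TTC pair (adjusted p = 4.42e-05 by that exact test), when the WT libraries are set to the floor of 3 reads. These folds, and those written in the same way below, leave out counting error in the library with reads: the exact 95% lower limits for Polr2c were 5.14 and 4.68. This test compares libraries, not genotypes, and takes reads as independent. Reads varied more than that allows, as given under the processing, so its p-values may be too small.

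None of the other 8 polymerase genes passed the test between genotypes. Polr2g, which encodes RPB7, had 9.73 RPM in KO SC, 7.16 in WT SC, 8.75 in KO TTC and 4.79 in WT TTC, a ratio of 1.36 in the SC pair (exact 95% interval 0.694 to 2.76) and 1.83 in the TTC pair (0.792 to 4.90). Polr2e encodes RPB5, which all 3 nuclear polymerases use. It had 5.61 RPM in KO SC against 3.34 in WT SC, and 10.1 in KO TTC against 10.3 in WT TTC. Polr2b, for the second largest subunit, had 4.86 against 5.25 RPM and 3.56 against 3.42 RPM in the same pairs. Neither differed beyond counting error between genotypes. For the remaining genes the reads were too few to compare. Polr2a, which encodes the catalytic largest subunit, had 3 reads in KO TTC and 0 elsewhere. Polr1c, a subunit of polymerases I and III, had 2 reads in KO SC, 0 in WT SC, 5 in KO TTC and 0 in WT TTC, like Polr2c without reads in WT. Polr2m had 0, 2, 1 and 0 reads in the same order, and Polr3e had 3 reads in WT TTC only. The 9 genes summed to 31.1 RPM in KO SC (24.7 to 38.5) and 17.2 in WT SC (12.0 to 23.8), and to 37.7 RPM in KO TTC (31.7 to 44.6) and 20.5 in WT TTC (13.9 to 29.3). Without Polr2c the sums were 21.3 against 17.2 RPM and 25.4 against 20.5 RPM, with overlapping intervals in each pair.

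Supt3 showed the opposite pattern to Polr2c. It encodes a subunit of SAGA, a coactivator complex that modifies histones, and lies on chromosome 17 from 44777118 to 45119294, where it overlaps Runx2. It had 0 reads in KO SC against 16 reads (7.63 RPM) in WT SC, and 0 reads in KO TTC against 11 reads (7.53 RPM) in WT TTC. With the KO libraries set to the floor, it was at least 6.80-fold lower in KO SC (adjusted p = 0.000176, exact binomial test) and at least 9.18-fold lower in KO TTC (adjusted p = 9.01e-05 by that exact test). The elongation factors of this group did not pass the test in either pair. Supt6, a histone chaperone, had 7.86 RPM in KO SC against 6.68 in WT SC, and 10.1 in KO TTC against 8.22 in WT TTC. Supt5, of the pausing factor DSIF, had 4.49 against 6.20 RPM and 8.48 against 6.85 RPM. Supt16, of FACT, and Tcea1, which encodes TFIIS, had at most 11 reads in any library. The group summed to 14.2 RPM in KO SC against 21.9 in WT SC and to 23.0 RPM in KO TTC against 24.7 in WT TTC, and without Supt3 to 14.2 against 14.3 RPM and 23.0 against 17.1 RPM.

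Genes read in both libraries of one genotype and in neither of the other were few in the whole table. Among 2912 transcripts with at least 10 reads in at least 2 libraries, 23 had at least 10 reads in both Ltn1 KO libraries and 0 in both WT libraries (0.79%), and 6 had the reverse (0.206%). Polr2c and Supt3 are 1 of each. The same pattern along the codes was held by 28 transcripts with reads only in the SC libraries (0.962%) and 29 with reads only in the TTC libraries (0.996%). Across genotype and code, 4 transcripts had reads only in KO SC and WT TTC (0.137%), and 6 only in KO TTC and WT SC (0.206%). The transcription machinery had 29 genes at this depth, and 2 of them, Ints7 and Taf1b, were read only in the SC libraries. The minimum of 10 reads was chosen after the values were seen. Within single pairs, genes at 0 reads in one library and at least 10 in the other numbered 3 higher and 3 lower of 29 in KO SC over WT SC (2.86% and 1.73% of transcripts at this depth) and 3 and 1 of 33 in KO TTC over WT TTC (7.04% and 0.952%). They numbered 2 and 2 of 34 in KO SC over KO TTC (2.38% and 5.57%), and 4 and 1 of 26 in WT SC over WT TTC (4.55% and 3.18%). Polr2c, Supt3, Ints7 and Taf11 share their loci with Dok4, Runx2, Dtl and Anks1, and Med19, Gtf3a and Taf10 with Tmx2, Mtif3 and Ilk. Whether reads were counted by strand is not given in the sources used here, so the reads of such partners may not be told apart.

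**Figure D2:**
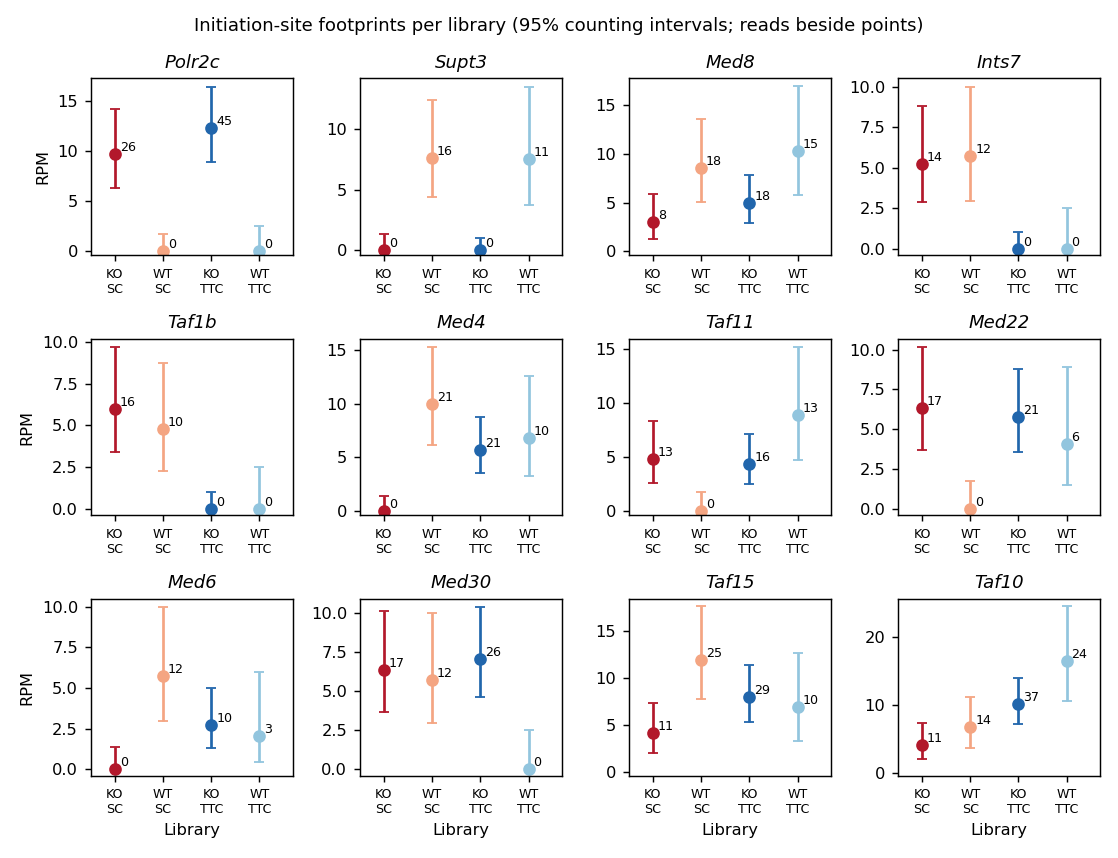
RPM at the initiation site (vertical axes) of 12 genes in each library (horizontal axes), as points with exact Poisson 95% intervals and with the reads printed beside them. Polr2c has reads only in the Ltn1 KO libraries (26 and 45), Supt3 only in the WT libraries (16 and 11), and Ints7 and Taf1b only in the SC libraries.

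In the SC pair, 3 of the 56 genes with reads in KO SC or WT SC were higher in KO SC and 5 were lower by the exact binomial test (threshold 0.05 after adjustment). Over all 5355 transcripts with reads, 2.63% were higher and 4.74% lower. Beside Polr2c, the higher genes were Med22 and Taf11. Med22, a subunit of the Mediator head, had 17 reads in KO SC and 0 in WT SC, at least 4.44-fold higher (adjusted p = 0.00275, exact test). Taf11, a histone-fold subunit of TFIID, had 13 reads in KO SC and 0 in WT SC, at least 3.40-fold higher (adjusted p = 0.0192, exact test). Beside Supt3, the lower genes were Med4, Med6, Taf15 and Taf12. Med4, of the Mediator middle module, had 0 reads in KO SC and 21 reads (10.02 RPM) in WT SC, at least 8.93-fold lower (adjusted p = 6.08e-06, exact test). Med6, of the Mediator head, had 0 reads in KO SC and 12 in WT SC, at least 5.10-fold lower (adjusted p = 0.00211, exact test). Taf15 is not a classical TFIID subunit but an RNA-binding protein. It had 4.12 RPM in KO SC and 11.9 in WT SC, a ratio of 0.345 (interval 0.153 to 0.727, adjusted p = 0.0366, exact test). Taf12 had 0 reads in KO SC and 7 in WT SC (adjusted p = 0.0455, exact test). Under both rescalings of the libraries the calls of Taf15 (adjusted p = 0.0564 and 0.0793, exact test) and Taf12 (0.0547 and 0.0580) were lost. Of these 8 genes, 7 had 0 reads in one of the 2 libraries.

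Only Polr2c and Supt3 were called in the TTC pair as well. There 2 of 54 genes were higher in KO TTC and 2 lower by the exact binomial test (threshold 0.05 after adjustment), where 3.14% and 4.41% of all 5448 transcripts with reads were. The further higher gene was Med30, a metazoan Mediator subunit, with 26 reads in KO TTC (7.11 RPM) and 0 in WT TTC, at least 3.46-fold higher (adjusted p = 0.00771, exact test). In the SC pair Med30 had 6.36 RPM in KO SC and 5.72 in WT SC. The further lower gene was Ints11, the endonuclease of Integrator, with 6 reads in WT TTC (adjusted p = 0.0129, exact test) and 0 in every other library. Of the genes called in the SC pair, Med4 had 5.74 RPM in KO TTC and 6.85 in WT TTC, and Taf11 had 4.38 RPM in KO TTC and 8.90 in WT TTC. Med22 had 5.74 against 4.11 RPM, Med6 2.74 against 2.05 RPM, and Taf15 7.93 against 6.85 RPM.

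A test of the difference itself, KO over WT in SC against KO over WT in TTC, called 2 of 42 testable genes, Med4 (adjusted p = 0.00449) and Taf11 (adjusted p = 0.0105, both from an exact conditional test of the 4 read counts). Over all 4642 testable transcripts it called 3.96%. The genotype ratio of each therefore differed between the pairs beyond counting error, with KO SC at 0 for Med4 and WT SC at 0 for Taf11. This test too takes reads as independent, so its p-values may be too small. Med6 came close to the threshold (adjusted p = 0.0586, same exact test), and Med30 and Med22 did not pass it (adjusted p = 0.0869 and 0.103).

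Among genes with a mean of at least 5 RPM, Med8 was in the lowest 5 of both pairs. It encodes a Mediator head subunit and had 2.99 RPM in KO SC against 8.59 in WT SC, and 4.92 in KO TTC against 10.3 in WT TTC. The ratios were 0.349 (interval 0.131 to 0.842) and 0.479 (0.228 to 1.02), and neither passed after adjustment (adjusted p = 0.133 and 0.270, exact binomial test). Both KO libraries were below both WT libraries. Taf9, a histone-fold TFIID subunit that shares its locus with Ak6, also had less in both KO libraries, at 5.24 against 9.54 RPM and 6.29 against 8.90 RPM. Ints3 had more in both, with 7.48 RPM in KO SC against 4.29 in WT SC, and 7.66 in KO TTC against 2.05 in WT TTC (ratios 1.74, interval 0.758 to 4.35, and 3.73, interval 1.15 to 19.2; adjusted p = 0.527 and 0.134, exact binomial test). Med7 and Med24, of the middle and tail modules, went in opposite directions in the pairs. Med24 had 4.12 against 7.16 RPM in the SC pair and 8.21 against 3.42 RPM in the TTC pair, and Med7 had 3.74 against 6.68 RPM and 6.02 against 4.11 RPM. Med15, of the tail, had 7.86 against 6.20 RPM in the SC pair and 9.57 against 4.11 RPM in the TTC pair. Gtf2e1, of TFIIE, had 6.36 against 4.29 RPM and 5.20 against 7.53 RPM. In the TTC pair Med19, Gtf3a and Taf10 were among the lowest ratios, at 0.613 (0.372 to 1.03), 0.610 (0.330 to 1.15) and 0.616 (0.359 to 1.08), while Gtf2a1 had 1.51 (0.933 to 2.53). None of these passed the exact binomial test. Gtf2b, which encodes TFIIB, had 2.24 against 3.34 RPM in the SC pair and 3.83 against 6.16 RPM in the TTC pair, and Gtf2i, which encodes TFII-I, had 5.99 against 5.25 RPM and 4.10 against 4.11 RPM. Taf1, the largest TFIID subunit, had 4 reads in each Ltn1 KO library and 0 in each WT library, and Gtf2h1, of the TFIIH core, had 3 in KO SC, 5 in KO TTC and 0 in both WT libraries, too few to pass. Med14, the Mediator backbone, had 1 read in every library.

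**Figure D3:**
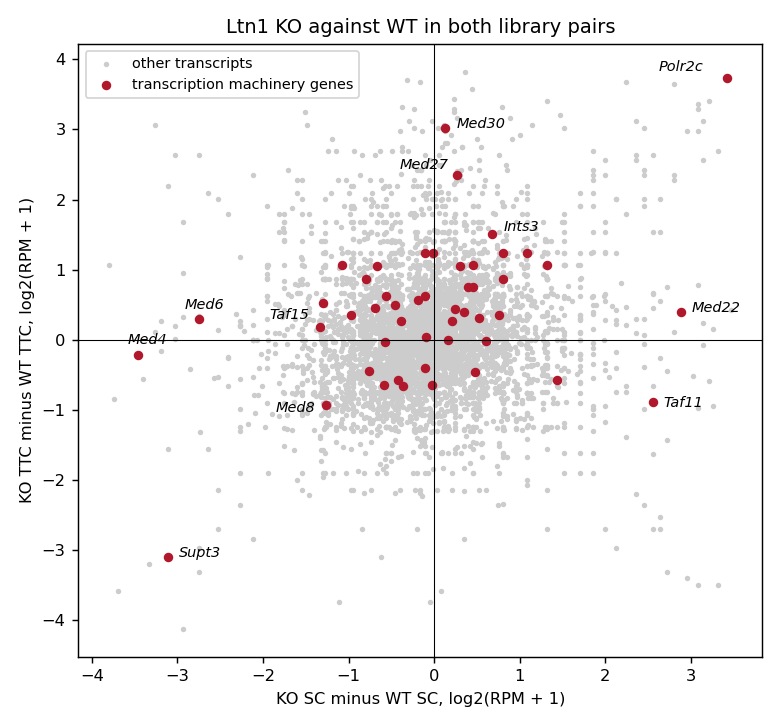
Difference between Ltn1 KO and WT in log2(RPM + 1) in the SC pair (horizontal axis) and the TTC pair (vertical axis), for genes of the transcription machinery (red) and other transcripts (grey) with reads in both pairs. Polr2c at 3.42 and 3.73 and Supt3 at -3.11 and -3.09 stand apart from the other red points along the diagonal, while Med4 and Taf11 differ from 0 mainly in the SC pair.

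Direction was counted for every gene with reads in a pair. In the SC pair, 24 of 56 genes were higher and 32 lower in KO SC (45.1% and 54.9% of all transcripts with reads), with a median difference of -0.10 in log2(RPM + 1) against -0.09 over all transcripts. With median-of-ratios factors this split became 28 and 28, where 51.2% and 48.8% of all transcripts were higher and lower. In the TTC pair, 37 of 54 were higher and 17 lower in KO TTC (50.9% and 49.1% of all transcripts with reads), with a median of 0.40 against 0.04. A 2-fold difference on this scale was passed by 6 genes upward and 9 downward in the SC pair (10% and 10.8% of all transcripts) and by 14 upward and 3 downward in the TTC pair (14.2% and 9.31%). Of the 14 upward genes in the TTC pair, 11 had 0 reads in WT TTC, the library with the fewest reads. At a mean of at least 5 RPM, 10 of 19 genes were higher and 9 lower in KO TTC, with a median of 0.19 against -0.05 over all transcripts. By group, 11 Mediator genes were higher and 5 lower in KO TTC (median 0.42), and 6 were higher and 10 lower in KO SC (median -0.44). The Mediator genes summed to 64.7 RPM in KO SC (55.4 to 75.1) against 88.7 in WT SC (76.4 to 102), and to 82.6 RPM in KO TTC (73.6 to 92.5) against 68.5 in WT TTC (55.7 to 83.3). Single genes weigh on the SC pair. Med4 and Med6, at 0 reads in KO SC, held 10.02 and 5.72 RPM of the WT SC sum. Med22 went the other way, with 6.36 RPM in KO SC and 0 reads in WT SC. The sum without these genes was not computed. The Taf genes had 3 higher and 6 lower in KO SC (median -0.76), and 3 and 3 in KO TTC (median -0.13). The Gtf2 genes had 4 higher and 3 lower in KO SC, and 5 and 3 in KO TTC, with none called. The Gtf3 genes, of which Gtf3c1 is the largest subunit of TFIIIC, had 2 and 3 in KO SC and 3 and 2 in KO TTC, again with none called. The Integrator genes had 3 higher and 4 lower in KO SC, and 4 and 1 in KO TTC. Of 49 genes with reads in both pairs, 18 were higher in both, 10 lower in both and 21 opposite, where 25.2% of all 4848 such transcripts were higher in both, 30.0% lower in both and 44.8% opposite. Across these 49 genes, which share the 4 libraries and their depths and are not replicates, the differences in the pairs had r = 0.43, and r = 0.12 without Polr2c and Supt3, where all 4848 transcripts had r = 0.10.

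**Figure D4:**
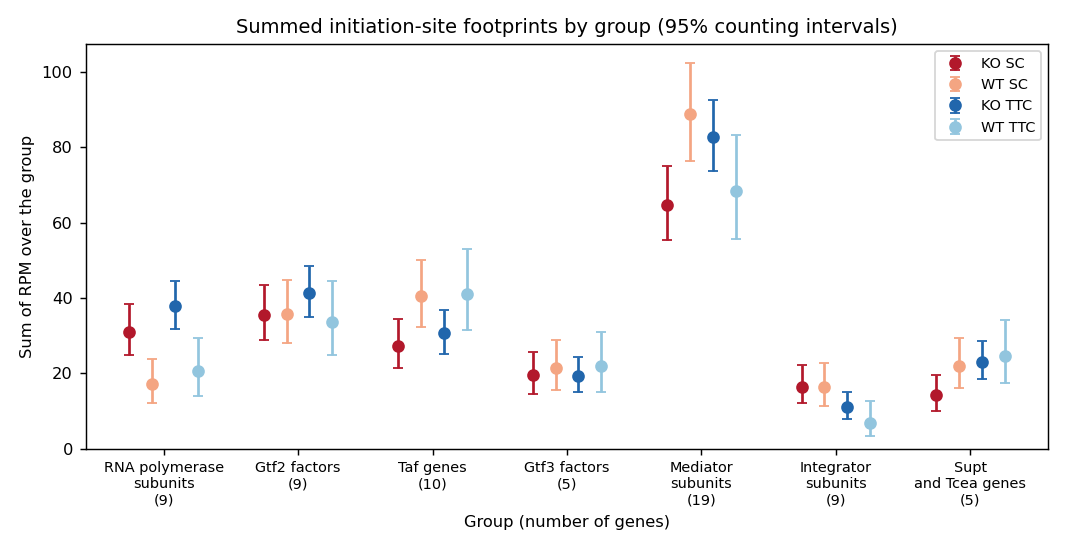
Summed RPM (vertical axis) of each group of genes (horizontal axis, number of genes in brackets) in the 4 libraries, with exact Poisson 95% intervals. The polymerase sums are 31.1 and 37.7 RPM in the Ltn1 KO libraries and 17.2 and 20.5 RPM in the WT libraries, a gap that comes mostly from Polr2c, while the Gtf2 and Gtf3 sums overlap in all libraries.

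In a fit of the 4 libraries with a term for genotype and a term for code, limma on log2(RPM + 1) called 0 of the 39 genes with a mean of at least 1 RPM, and 0 of 4548 transcripts (0%), for genotype. At an unadjusted p of 0.05 it had 1 gene of the machinery higher in Ltn1 KO, Polr2c, and 2 lower, Supt3 and Med8, where 2.4% of all transcripts were higher and 2.81% lower. Polr2c had a difference of 3.58 ± 0.35 (SE, adjusted p = 0.513 from limma), Supt3 of -3.10 ± 0.34 (adjusted p = 0.513 from limma) and Med8 of -1.10 ± 0.35 (adjusted p = 0.750 from limma). The fit has 1 residual degree of freedom. On reads recovered from the RPM, of which 100% came out whole, edgeR called 0 of the same genes (adjusted p = 0.758 for Polr2c, Supt3 and Med8) and had the same 3 genes at an unadjusted p of 0.05, and DESeq2 called 0 genes of the machinery, with 0% of all transcripts higher and 0.022% lower.

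The RNAi comparison was made within each genotype. Of 54 genes with reads, 18 were higher and 36 lower in KO SC than in KO TTC (41.9% and 58.1% of all transcripts), with a median difference of -0.28 against -0.17 over all transcripts, and 2 and 6 passed 2-fold (8.25% and 14.1%). Of 52 genes, 33 were higher and 19 lower in WT SC than in WT TTC (48.6% and 51.4%), with a median of 0.49 against -0.03, and 10 and 8 passed 2-fold (14.7% and 15.9%). Of these 10 upward genes, 9 had 0 reads in WT TTC, and of the 8 downward genes, 5 had 0 reads in WT SC. At a mean of at least 5 RPM, 11 of 18 genes were higher and 7 lower in WT SC (44.0% and 56.0% of all transcripts). The median was then 0.21 against -0.10. The WT comparison and the TTC pair share the WT TTC library, so their shifts are not separate results. Between the Ltn1 KO libraries, 2 of 54 genes were higher in KO SC and 4 lower by the exact binomial test (threshold 0.05 after adjustment), where 5.71% and 10.9% of all 5623 transcripts were. The higher genes were Taf1b and Ints7. Taf1b, a TAF of the polymerase I selectivity factor on chromosome 12 from 24498581 to 24558571, had 16 reads in KO SC with 0 in KO TTC, at least 7.29-fold higher (adjusted p = 3.58e-05, exact test). Ints7, an Integrator subunit on chromosome 1 from 191575540 to 191623690 that overlaps Dtl, had 14 and 0 reads, at least 6.38-fold higher (adjusted p = 0.000151, exact test). The lower genes were Med4 at 0 against 21 reads (adjusted p = 0.000353), Med6 at 0 against 10 reads (adjusted p = 0.0427), Med28 at 1 against 16 reads (ratio 0.0855, interval 0.00204 to 0.550, adjusted p = 0.0178) and Taf10 at 4.12 against 10.1 RPM (ratio 0.407, interval 0.187 to 0.814, adjusted p = 0.0479), all by the exact binomial test. Under both rescalings the calls of Taf10 (adjusted p = 0.0915 and 0.116, exact test) and Med6 (0.0518 and 0.0540) were lost.

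Between the WT libraries, 3 of 52 genes were higher in WT SC and 4 lower by the exact binomial test (threshold 0.05 after adjustment), where 3.82% and 7.02% of all 5345 transcripts were. Ints7, Med27 and Med30 each had 12 reads in WT SC and 0 in WT TTC, at least 2.79-fold higher (adjusted p = 0.0247 for each, exact test). Taf1b had 10 reads in WT SC and 0 in WT TTC and did not pass. Taf11 had 0 reads in WT SC and 13 in WT TTC, at least 6.22-fold lower (adjusted p = 0.000353, exact test). Med16, of the tail, had 1 read in WT SC and 9 in WT TTC (ratio 0.0774, interval 0.00177 to 0.559, adjusted p = 0.0247, exact test), while Med22 and Ints11 had 0 reads in WT SC and 6 in WT TTC (adjusted p = 0.0455 for each, exact test), calls that both rescalings lost (adjusted p = 0.0577 and 0.0567). Ints7 was the only gene of the machinery called in the same direction in both genotypes. Several calls repeat because comparisons share a library, and such repeats are not separate results. Med4 and Med6 were called in both comparisons that use KO SC, where each had 0 reads. Taf11 and Med22 were called in both that use WT SC, where each had 0 reads. Med30, at 0 reads in WT TTC, and Ints11, at 6 reads there, were called in both that use WT TTC. Taf10 had 6.68 RPM in WT SC and 16.4 in WT TTC, a ratio of 0.406 like that in Ltn1 KO, without passing (adjusted p = 0.0642, exact test). In the fit with both terms, limma called 0 of the 39 genes for the code, SC minus TTC (0% of all transcripts), and DESeq2 also called 0 of them, with 0.176% of all transcripts in each direction. At an unadjusted p of 0.05, Ints7 and Taf1b had higher values in SC and Taf10 and Gtf3c6, a TFIIIC subunit, had lower ones, 2 and 2 of the 39 genes, where 4% and 6.68% of all transcripts did. Ints7 had a difference of 2.70 ± 0.34 (SE, adjusted p = 0.195 from limma) and Taf1b of 2.67 ± 0.35 (adjusted p = 0.195). Under the exchange of labels that the codes spell, each of these RNAi differences turns its sign.

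Other genes of transcription were read from a list of 73, of which 41 were measured. In the SC pair, 15 of 35 with reads were higher in KO SC and 20 lower (median -0.17), and 0 and 2 passed the exact binomial test (2.63% and 4.74% of all transcripts). In the TTC pair, 21 of 34 were higher in KO TTC and 13 lower (median 0.20), and 1 and 0 passed (3.14% and 4.41%). The lower genes were Ssrp1, the partner of SPT16 in FACT, at 1.12 RPM in KO SC and 6.68 in WT SC (adjusted p = 0.0346, exact test), and Snapc1, of the complex that binds small nuclear RNA promoters, at 8.98 RPM in KO SC and 19.1 in WT SC (adjusted p = 0.0479, exact test). Both went the other way in the TTC pair. There Ssrp1 had 6.29 RPM in KO TTC and 4.11 in WT TTC, and Snapc1 had 11.8 and 6.16 RPM. The higher gene was Gpn3, a GTPase needed to assemble polymerase II, at 8.48 RPM in KO TTC and 0 reads in WT TTC (adjusted p = 0.00261, exact test). Gpn3 had 12.0 RPM in KO SC and 10.02 in WT SC. The exact conditional test of KO over WT between the pairs called Snapc1 (adjusted p = 0.0475) and Gpn3 (adjusted p = 0.0405), and not Ssrp1 (adjusted p = 0.0853). Of all testable transcripts it called 3.96%. Ccnh, the cyclin of the TFIIH kinase, had 13.8 RPM in KO SC, 5.72 in WT SC, 15.6 in KO TTC and 17.8 in WT TTC. Rrn3, which brings polymerase I to its promoter, had 17.6 RPM in KO SC, 12.9 in WT SC, 9.30 in KO TTC and 12.3 in WT TTC, and Mnat1 and Ccnt2, of the kinases CAK and P-TEFb, had means of 10.7 and 8.43 RPM. Between the Ltn1 KO libraries, 3 of 36 listed genes with reads were higher in KO SC by the exact binomial test, Rrn3, Hexim1 and Eloa, and 4 were lower, Ercc2, Ssrp1, Gpn1 and Rnmt (5.71% and 10.9% of all transcripts). Between the WT libraries, 2 of 37 were higher in WT SC, Gpn3 and Snapc1, and 2 lower, Ercc2 and Ccnh (3.82% and 7.02%). The repeated calls of Ssrp1, Gpn3 and Snapc1 each share a library with their KO against WT calls. Ercc2, a helicase of TFIIH, had 0 reads in both SC libraries, 14 in KO TTC and 8 in WT TTC. Rtf1, Cdk13, Brf1 and Rngtt had 0 reads in all 4 libraries.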

How the data were processed

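Footprints were measured in 4 libraries of neurons, 1 per condition. The authors deposited RPM per transcript at translation initiation sites. The submitters' processing notes name Bowtie, SAMtools, bedtools and GRCm38/mm10. Versions, the counted window, the handling of strand and of reads with several matches, and the annotation are not given in the sources used here. Symbols came from Dataset S1 by transcript identifier (38 identifiers with a surplus 0 were mended) for 6351 of 6352 transcripts, and positions from RefSeq on GRCm38.p6 for 66 of 66 genes. Genes and lists were chosen with earlier results of these data known. The 7 groups follow the symbols.

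The deposited values came in steps of 1 read (100% whole within 1e-06), from which reads were recovered. Levels carry exact Poisson 95% intervals and ratios exact binomial (Clopper-Pearson) intervals. Differences are on the log2(RPM + 1) scale, which understates changes of low genes. Pairs of libraries were compared by two-sided exact conditional binomial tests given the total reads, with Benjamini-Hochberg adjustment over all transcripts with reads in the pair, and KO over WT between codes by an exact noncentral hypergeometric test. Reads varied more than counting error allows: the mean Pearson statistic, 1 for counting error, was 3.28 in the SC pair, 3.17 in the TTC pair, 5.12 between the KO libraries and 4.15 between the WT libraries among transcripts with at least 20 reads. Among genes of the machinery it was 3.32, 2.72, 2.39 and 1.56 in this order. The exact tests do not allow for this extra variation, so their p-values may be too small. The additive model used limma 3.58.1, with edgeR 4.0.16 and DESeq2 1.42.0 as alternatives (R 4.3.3), at a mean of at least 1 RPM. Counts and tests were computed in Python 3.11.15 (scipy 1.17.1, numpy 2.4.6, pandas 2.3.3) and plotted with matplotlib 3.10.9. Scripts were tested on simulated data. Alternatives were a pseudocount of 0.1 RPM, a mean of at least 5 RPM, a 3-fold threshold, libraries rescaled to the same sum or by median-of-ratios factors, and exchanged labels. Named were all genes called by a test, the 10 highest by mean, every Polr gene except 1 that is not reported here, the 5 highest and 5 lowest differences of each KO against WT pair at a mean of at least 5 RPM, and genes at 0 throughout; Gtf3c1, Supt5, Supt16, Tcea1, Gtf2b, Gtf2i, Gtf2h1, Taf1, Med14 and Gtf3c6 were named outside this rule after their values were seen.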

Additional observations from a re-analysis of the deposited data

Results flagged for a closer look

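The difference between Ltn1 KO and WT was not the same in both pairs of libraries for Med4 (adjusted p = 0.00449) and Taf11 (adjusted p = 0.0105), by the exact test of the difference over 4642 transcripts. Med4 had 0 reads in KO SC and 21 in WT SC, but 21 reads in KO TTC and 10 in WT TTC. Taf11 had 13 reads in KO SC and 0 in WT SC, but 16 reads in KO TTC and 13 in WT TTC. In each, a single library at 0 reads sets the difference, and there is no second library of that condition.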

How the results depend on the processing

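No paired analysis was possible because each condition had 1 library and the labels give no shared replicates, and leaving out a library leaves no residual degree of freedom. Rescaling to the same sum over the listed sites shifted the log2 ratios of RPM in each pair. The shifts were 0.07 in the SC pair, 0.03 in the TTC pair, 0.14 in KO SC over KO TTC and 0.10 in WT SC over WT TTC. Median-of-ratios factors shifted these ratios by 0.14, 0.06, 0.17 and 0.10. On the log2(RPM + 1) scale the shift differed between genes. With the same sum, Med4 moved from -3.46 to -3.48 in the SC pair and Polr2c from 3.42 to 3.51. Under either rescaling, calls by the exact binomial test fell to 3 lower genes in the SC pair (without Taf15 and Taf12), 2 lower in KO SC against KO TTC (without Taf10 and Med6) and 2 lower in WT SC against WT TTC (without Med22 and Ints11). All transcripts then had 3.73% and 3.32% lower calls in the SC pair (same sum, median-of-ratios), 7.29% and 6.90% between the KO libraries and 5.33% and 5.48% between the WT libraries. With median-of-ratios factors, higher calls in KO SC against KO TTC rose from 2 to 3 genes, where those of all transcripts rose from 5.71% to 7.47%. No call of Polr2c, Supt3, Ints7, Taf1b, Med4 or Taf11 was lost under either scaling, and of 52 values of single called genes under these 2 scalings, 40 kept direction and call, 12 lost the call and 0 turned round. At a mean of at least 5 RPM, the exact test called 1 higher and 2 lower genes for SC, 1 and 0 for TTC, 0 and 2 between the KO libraries, and 0 and 1 between the WT libraries, and 2-fold differences numbered 1 and 3, 4 and 0, 0 and 2, and 0 and 2, since fewer genes were tested. Of all transcripts at this mean, 3.04% and 7.59%, 4.68% and 6.50%, 6.66% and 17.99%, and 5.88% and 10.3% were called, and 2.99% and 6.85%, 5.29% and 4.68%, 3.16% and 9.65%, and 6.92% and 9.51% passed 2-fold. The median in the TTC pair was then 0.19, against -0.05 over all transcripts. With a pseudocount of 0.1 RPM, 2-fold differences numbered 12 higher and 15 lower, 23 and 6, 4 and 14, and 21 higher between the WT libraries (18.1% and 19.8%, 23.7% and 16.3%, 15.1% and 24.5%, and 23.0% of all transcripts). At 3-fold they numbered 3 and 5 for SC, 3 higher for TTC, 3 lower between the KO libraries and 5 lower between the WT libraries (3.75% and 3.87%, 6.50%, 5.69% and 7.93%). With at least 10 reads over the pair, chosen after seeing the data, they numbered 3 and 5, 6 and 1, and 5 and 4 between the WT libraries (6.44% and 9.45%, 12.7% and 6.55%, 11.4% and 11.3%), and the exact test called 1 lower in the TTC pair (4.85%). Exchanging the labels turns the sign of each RNAi median by construction and tests nothing. The median of TTC3 RNAi minus scramble RNAi then reads 0.28 in Ltn1 KO, against -0.28, and -0.49 in WT, against 0.49. The SC minus TTC values stay as they are. Calls by limma, edgeR and DESeq2 stayed at 0 genes of the machinery under every alternative for genotype and code. Over all transcripts calls were nearly as rare, so this count is not particular to the machinery. For code, limma at a mean of at least 5 RPM called 7 higher and 8 lower of 2314 transcripts, with 19 genes of the machinery tested. DESeq2 called 8 and 8 of 4548 for code, and 0 and 1 for genotype. The remaining fits called 0 transcripts. At these depths, genes such as Polr2a, with at most 3 reads in a library, could not be compared.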
